A study of Caenorhabditis elegans with 12 samples.

Results

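Transcript levels of 8 ion and phosphate transport genes and 1 neighbouring gene were followed in whole hermaphrodites of Caenorhabditis elegans, fed bacteria with either a bcat-1 RNAi vector or the empty vector L4440. The genes were the sodium/proton exchangers nhx-2, nhx-6 and nhx-7 (listed as pbo-4 in the annotation), the P-type ATPase genes catp-1, catp-2, catp-3 and catp-4, the phosphate transporter gene pitr-5, and C02E7.10, a protein-coding gene next to catp-2. All 9 were among the 46748 genes of the count table. The set was built around nhx-6 and catp-2 because both were higher on bcat-1 RNAi at day 2, so the day 2 difference between foods is given for the members as a description, with no test. The other members were added as relatives, as the neighbour, or as a further transporter.

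All worms were of the wild-type strain N2. Each of the 4 groups had 3 libraries: bcat-1 RNAi at an age of 2 days, L4440 at 2 days, bcat-1 RNAi at 1 day, and L4440 at 1 day. The RNA came from whole worms, and the labels do not say from when the age was counted, how many worms a library held, or whether libraries were separate cultures, so p-values measure only the spread between these samples. In whole-worm RNA, fewer cells of a type and less RNA per cell cannot be told apart.

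Sodium/proton exchangers of the NHX family move protons across a membrane in exchange for sodium or potassium ions. In the worm intestine NHX-2 sits on the face toward the gut lumen, where dipeptide uptake brings in protons, and NHX-7, also called PBO-4, releases protons from the posterior intestine onto the body wall muscle at each defecation cycle. The catp-1 to catp-4 genes belong to the alpha-subunit family of the sodium/potassium and proton/potassium pumps, in which EAT-6 is the worm's sodium/potassium pump. PITR proteins belong to a family that carries phosphate into cells together with sodium. BCAT-1, the target of the RNAi, is an aminotransferase and carries out the opening step in the catabolism of the branched-chain amino acids.

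Library totals ran from 29291731 to 43855795 counts. Values are given as CPM, counts scaled to a common library size, and levels of different genes are compared per kilobase of exon. bcat-1 RNA was at 13.9, 17.3 and 329 CPM with bcat-1 RNAi at day 2, against 140, 157 and 116 CPM on L4440, with day 1 values of 19.5, 18 and 27.1 CPM on bcat-1 RNAi, against 179, 175 and 156 CPM on L4440. In bcat-1 RNA, the library labelled bcat-1 RNAi day 2 replicate 3 thus goes against its label. It also held 41.5% of its counts in 22 ribosomal RNA genes, against 0.0724% to 6.74% in the other 11. For nhx-6, catp-2, C02E7.10, pitr-5 and catp-3 it lay with the other bcat-1 libraries of day 2, apart from L4440. Those genes are members, so this is a description, and the cause was not tested. DESeq2 results and counts of calls use all 12 libraries unless stated. The value of this library stands in every set of levels below. The log2 changes of the members, the pooled ratios and the edgeR calls of named genes in comparisons that hold it are also given without it. Without it, edgeR's quasi-likelihood test put the log2 change of bcat-1 at day 2 at -3.15 (SE 0.20, adjusted p = 8.52e-05). The day 1 value was -3.0 (SE 0.17, adjusted p = 2.24e-05), and with all 12 libraries the values of day 2 and day 1 were -0.21 (adjusted p = 0.952) and -2.98 (adjusted p = 1.0). Of 61 markers in 11 lists for tissues and cell types, 56 were tested. In the RNAi comparison 0 passed edgeR at either day. At an unadjusted p under 0.05 there were 6 at day 2 and 1 at day 1, and DESeq2 called 1 and 0. Of all genes, 7.21% and 2.04% had such a p, and DESeq2 called 1.24% and 0.143%. The intestine list was complete, at 9 of 9 markers tested; in the sperm list 3 of 6 were tested, and msp-10 was at 0 in all 12 libraries.

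nhx-6, on chromosome II at 1670829-1674401 of WBcel235 on the forward strand, had the widest relative range of the 3 exchangers among the members. It had 6.37, 11.7 and 8.46 CPM with bcat-1 RNAi at day 2 (257, 513 and 166 counts), against 0.954, 0.635 and 0.271 CPM on L4440 (43, 21 and 8 counts). Every bcat-1 library stood above every L4440 library. The mean was 8.83 ± 2.67 CPM on bcat-1 RNAi and 0.62 ± 0.341 CPM on L4440 (SD, n = 3 each), and the fitted log2 change was 3.79 (SE 0.39), a 13.8-fold higher level. Without the library labelled bcat-1 RNAi day 2 replicate 3 it was 14.1-fold, and without both replicate 1 libraries of day 2 the log2 change was 4.47. Pooled over the libraries, the ratio was 13.5 with a 95% interval from 10.6 to 17.3 that covers counting error only. Without the library labelled bcat-1 RNAi day 2 replicate 3 the ratio was 13.6 (10.7 to 17.6). These intervals leave out the spread between libraries. They are no test of a difference on which the set was built.

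The stated reason for the choice of genes was the day 2 difference, but earlier results of these data were known when they were chosen. The day 1 values are therefore not an independent check. At day 1 nhx-6 had 0.484, 0.261 and 0.335 CPM on bcat-1 RNAi (19, 9 and 10 counts). On L4440 it had 0.191, 0.111 and 0.0942 CPM (8, 5 and 3 counts). The groups did not overlap, with bcat-1 RNAi the higher. The log2 difference was 1.42 (SE 0.52), which passed neither edgeR (adjusted p = 1.0) nor DESeq2 (adjusted p = 1.0) over all genes. nhx-6 entered the edgeR fit with the help of day 2 libraries. At day 1, 2 of 3 bcat-1 RNAi and 0 of 3 L4440 libraries were over the level of the low-count filter. The pooled ratio was 2.73, with a counting interval from 1.49 to 5.25. Both foods held more nhx-6 RNA at day 2 than at day 1. The log2 difference between days was 4.59 (SE 0.42; 4.6 without the library labelled bcat-1 RNAi day 2 replicate 3) on bcat-1 RNAi and 2.22 (SE 0.49) on L4440. These age differences share the day 2 libraries that chose the gene and were not tested.

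Within the exchanger family, the rank of nhx-6 differed by group. By mean CPM per kilobase it ranked 5 of 9 exchangers on bcat-1 RNAi at day 2 and 9 of 9 in each of the other 3 groups. Its share of the summed exchanger level per kilobase was 7.11%, 13.9% and 12.2% on bcat-1 RNAi at day 2, against 1.18%, 0.913% and 0.391% on L4440. At day 1 it was 0.695%, 0.327% and 0.424% on bcat-1 RNAi, against 0.253%, 0.138% and 0.124% on L4440. The 6 exchangers outside the set (nhx-1, nhx-3, nhx-4, nhx-5, nhx-8 and nhx-9) did not pass edgeR between foods at either day (0 of 6, also at an unadjusted p under 0.05 and with DESeq2), with a median log2 change of -0.06 at day 2 and 0.01 at day 1.

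nhx-2, on chromosome II at 7690711-7693957 on the reverse strand, was the exchanger with the highest mean level in all 4 groups. It had 22.2, 21.8 and 17.6 CPM with bcat-1 RNAi at day 2, against 21.2, 20.7 and 20.2 CPM on L4440. At day 1 it had 24.9, 31.4 and 31.8 CPM on bcat-1 RNAi, against 28.4, 32.8 and 31.1 CPM on L4440. The foods overlapped at both days (log2 -0.01, SE 0.12, at day 2, and 0.07 without the library labelled bcat-1 RNAi day 2 replicate 3; at day 1 -0.07, SE 0.12, edgeR's adjusted p = 1.0), while the 6 day 2 libraries all lay below the 6 day 1 libraries.

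nhx-2 fell with age on both foods. The log2 change from edgeR was -0.51 (SE 0.12, adjusted p = 0.0359) on bcat-1 RNAi and -0.57 (SE 0.12, adjusted p = 0.0314) on L4440. DESeq2 called both (adjusted p = 0.00249 on bcat-1 RNAi and 0.000908 on L4440; it called 7.12% and 6.31% of genes). In edgeR the calls were close to the threshold: 8 of 12 fits that left out 1 library lost the call on bcat-1 RNAi, with adjusted p up to 0.177, and 7 of 12 lost it on L4440, with adjusted p up to 0.151. On bcat-1 RNAi these were the fits without bcat-1 RNAi day 1 replicate 2 (0.163) or 3 (0.177), bcat-1 RNAi day 2 replicate 2 (0.0589), the library labelled bcat-1 RNAi day 2 replicate 3 (0.0509), L4440 day 2 replicate 3 (0.0565), or L4440 day 1 replicate 1 (0.0533), 2 (0.0563) or 3 (0.0538). On L4440 they were the fits without L4440 day 2 replicate 1 (0.076) or 3 (0.116), L4440 day 1 replicate 1 (0.0674), 2 (0.151) or 3 (0.0967), or bcat-1 RNAi day 1 replicate 2 (0.0535) or 3 (0.0643). The log2 change stayed between -0.62 and -0.44 on bcat-1 RNAi and between -0.63 and -0.53 on L4440 over these 12 fits. Over all genes, edgeR called 4.07% on bcat-1 RNAi and 2.3% on L4440 in either direction with age; 2.06% and 1.29% were calls of a lower level.

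The summed level of the 9 intestine markers was 20200, 19800 and 19700 CPM with bcat-1 RNAi at day 2, against 20900, 21400 and 20400 CPM at day 1. On L4440 it was 19800, 21900 and 19000 CPM at day 2, against 22100, 21500 and 20800 CPM at day 1. Of these markers, the aspartyl protease gene asp-1 fell on both foods (log2 -0.95, adjusted p = 0.000804 on bcat-1 RNAi; -0.72, adjusted p = 0.00752 on L4440, but 0.156 with library size only) and the microvillus actin gene act-5 fell on bcat-1 RNAi (-0.55, adjusted p = 0.0129), by edgeR. The act-5 call was lost without bcat-1 RNAi day 1 replicate 2 (adjusted p = 0.0725) or 3 (0.0562), with library size only (0.15) and when only the compared groups were fitted (0.0643). Without the library labelled bcat-1 RNAi day 2 replicate 3, edgeR gave asp-1 -0.92 (adjusted p = 0.000947) and act-5 -0.58 (0.0186) on bcat-1 RNAi. Over the 9 intestine markers the median log2 change with age was -0.02 (-0.95 to 0.51) on bcat-1 RNAi, with 4 positive. On L4440 it was -0.11 (-0.72 to 0.34), with 2 positive. The part of these markers in the nhx-2 change was not tested.

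nhx-7, on chromosome X at 10954134-10958233 on the forward strand, lay between 12.1 and 18.6 CPM in all 12 libraries. It had 18.6, 13.5 and 14.9 CPM with bcat-1 RNAi at day 2, against 16.7, 13.8 and 15.1 CPM on L4440. Its day 1 values were 13.4, 12.5 and 13.4 CPM on bcat-1 RNAi, against 12.1, 13.4 and 15.1 CPM on L4440. Neighbouring groups in the order of means all overlapped. The log2 change between foods at day 2 was 0.04 (SE 0.14; 0.06 without the library labelled bcat-1 RNAi day 2 replicate 3), and at day 1 it was -0.05 (SE 0.14, adjusted p = 1.0 with edgeR). With age it was 0.26 (SE 0.14, adjusted p = 0.349; 0.27 and 0.317 without that library) on bcat-1 RNAi and 0.17 (SE 0.14, adjusted p = 0.634) on L4440.

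**Figure D1:**
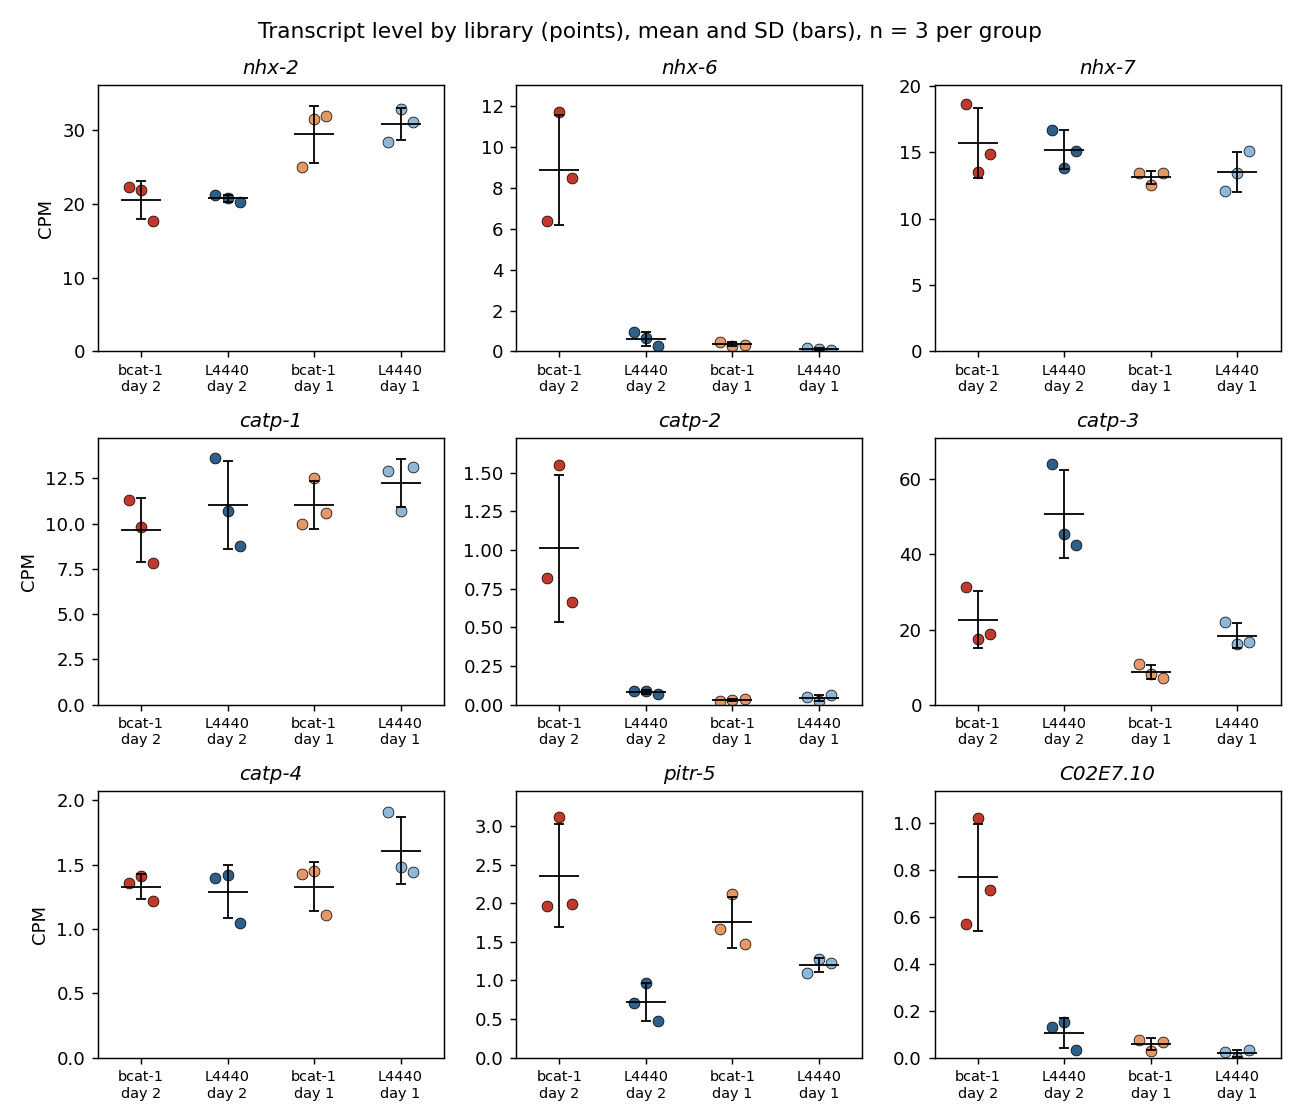
CPM of each of the 9 genes (linear axes from 0, 1 panel per gene) in the 4 groups. Points are libraries, and bars are mean ± SD, n = 3 per group. nhx-6, catp-2 and C02E7.10 are near the bottom of their panels except on bcat-1 RNAi at day 2, where nhx-6 reaches 6.37 to 11.7 CPM; catp-3 is highest on L4440 at day 2, at 42.5 to 64.1 CPM; nhx-2 is lower at day 2 than at day 1 on both foods.

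catp-2, on chromosome V at 4934706-4939085 on the forward strand, is the least abundant of the pump genes. It had 0.817, 1.55 and 0.663 CPM with bcat-1 RNAi at day 2 (33, 68 and 13 counts), against 0.0887, 0.0908 and 0.0678 CPM on L4440 (4, 3 and 2 counts). At day 1 it had 1, 1 and 1 count on bcat-1 RNAi, against 2, 1 and 2 counts on L4440. Counts were thus above 4 only in the 3 bcat-1 libraries of day 2, and at day 1 no fold can be given. The day 2 log2 difference between foods was 3.57 (SE 0.42), 11.9-fold higher on bcat-1 RNAi and 13.6-fold without the library labelled bcat-1 RNAi day 2 replicate 3. The pooled ratio was 13.1, with a counting interval from 6.67 to 29.4 (14.3, 7.25 to 32.2, without that library). Of its exon bases, 114 are shared with the non-coding gene C02E7.16 on the other strand, which had 0 counts in all 12 libraries.

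C02E7.10 lies on chromosome V at 4932393-4933045 on the reverse strand, so that it and catp-2 point away from each other with 1660 bases between them. It had 0.57, 1.02 and 0.714 CPM with bcat-1 RNAi at day 2 (23, 45 and 14 counts), against 0.133, 0.151 and 0.0339 CPM on L4440 (6, 5 and 1 counts). The day 1 libraries held 3, 1 and 2 counts on bcat-1 RNAi, against 1, 0 and 1 counts on L4440. As for catp-2, the bcat-1 libraries of day 2 were apart from all others. Its day 2 log2 difference was 2.78 (SE 0.49), 6.87-fold higher on bcat-1 RNAi and 7.05-fold without the library labelled bcat-1 RNAi day 2 replicate 3, with a pooled ratio of 7.07 and a counting interval from 3.84 to 14.2 (7.23, 3.88 to 14.7, without it). Both genes passed the filter on low counts only through the bcat-1 libraries of day 2.

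The genes on the outer sides of this pair had almost no reads. str-211, beyond the end of catp-2, had at most 2 counts in a library, and str-205, beyond the end of C02E7.10, had 0 in all 12. With age, the counts of catp-2 summed over 3 libraries were 114 at day 2 and 3 at day 1 on bcat-1 RNAi, and 9 at day 2 and 5 at day 1 on L4440. For C02E7.10 they were 82 at day 2 and 6 at day 1 on bcat-1 RNAi, and 12 at day 2 and 2 at day 1 on L4440.

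catp-3, on chromosome V at 8076012-8079916 on the forward strand, was lower in every bcat-1 RNAi library than in every L4440 library of the same day. It had 31.4, 17.6 and 18.8 CPM with bcat-1 RNAi at day 2, against 64.1, 45.5 and 42.5 CPM on L4440. At day 1 it had 10.7, 8.19 and 7.03 CPM on bcat-1 RNAi, against 22.1, 16.2 and 16.8 CPM on L4440. The foods did not overlap at either day. The log2 difference was -1.16 (SE 0.24) at day 2, 2.24-fold lower on bcat-1 RNAi, and -1.07 without the library labelled bcat-1 RNAi day 2 replicate 3.

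The day 1 difference of catp-3 was -1.09 on the log2 scale (SE 0.25), 2.12-fold lower on bcat-1 RNAi in 3 of 3 libraries against 3. It did not pass edgeR over all genes (adjusted p = 0.796) but passed DESeq2 (adjusted p = 0.0101). Its adjusted p was between 0.0101 and 1.0 under the alternatives, and leaving out 1 library kept the log2 difference between -1.27 and -0.93. At day 1 edgeR called 0 of 14567 genes between foods (0.0%), with 297 (2.04%) at an unadjusted p under 0.05, and DESeq2 called 16 (0.143%).

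catp-3 also rose with age on both foods. The edgeR log2 change was 1.39 (SE 0.25, adjusted p = 0.00993) on bcat-1 RNAi, where it was 1.47 (adjusted p = 0.00818) without the library labelled bcat-1 RNAi day 2 replicate 3, and 1.47 (SE 0.25, adjusted p = 0.012) on L4440, with groups that did not overlap. Calls of a higher level with age made up 2.01% of genes on bcat-1 RNAi and 1.01% on L4440. The call on bcat-1 RNAi was lost without bcat-1 RNAi day 1 replicate 2 (adjusted p = 0.0583) or 3 (0.0585), and that on L4440 without L4440 day 1 replicate 2 (0.0781) or 3 (0.0592). Replicate 1 was the highest catp-3 library of its group on both foods at day 2, and these libraries also had the highest summed level of 24 moult genes, cuticle collagens and other genes of the larval moulting cycle. That sum was 664, 257 and 345 CPM with bcat-1 RNAi at day 2 and 697, 256 and 495 CPM on L4440 at day 2. At day 1 it was 170, 230 and 268 CPM with bcat-1 RNAi and 183, 210 and 257 CPM on L4440. There replicate 1 was again the highest catp-3 library on both foods (10.7 and 22.1 CPM), but it had the lowest sum (170 and 183 CPM). Without both replicate 1 libraries of day 2, the catp-3 change with age was 1.09 (adjusted p = 0.0107) on bcat-1 RNAi and 1.26 (adjusted p = 0.00928) on L4440.

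Of the moult genes, 23 were tested and 0 passed edgeR in either age comparison, with 11 on bcat-1 RNAi and 13 on L4440 at an unadjusted p under 0.05 and 4 and 8 with DESeq2. Their median log2 change with age was 1.59 on bcat-1 RNAi and 1.71 on L4440, where the median of all genes was -0.005 and -0.001. Without the library labelled bcat-1 RNAi day 2 replicate 3 the first of these was 0.70. Of all genes, 18.7% on bcat-1 RNAi and 18.1% on L4440 had an unadjusted p under 0.05 with age. DESeq2 called 7.12% and 6.31%. Between foods, 0 of the 23 passed edgeR, 0 at day 2 and 1 at day 1 had an unadjusted p under 0.05, 0 passed DESeq2 at either day, and the median was -0.23 at day 2 and 0.06 at day 1.

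The receptor-family gene str-144 starts 3864 bases before the start of catp-3 on the other strand, and str-131 ends 232 bases beyond its end. str-144 had 13, 6 and 5 counts on bcat-1 RNAi at day 2, against 29, 20 and 11 counts on L4440, and 0, 3 and 1 counts on bcat-1 RNAi at day 1, against 5, 4 and 5 counts on L4440. Its libraries had the same order of group means as catp-3 in CPM, highest on L4440 at day 2 and lowest on bcat-1 RNAi at day 1. No comparison of str-144 passed edgeR: the log2 difference between foods was, for day 2, -1.21 (SE 0.49, adjusted p = 0.612) and, for day 1, -1.53 (SE 0.75, adjusted p = 1.0), and with age 2.49 (SE 0.70, adjusted p = 0.0744) on bcat-1 RNAi and 2.16 (SE 0.52, adjusted p = 0.0547) on L4440. str-131 had at most 2 counts in any library.

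**Figure D2:**
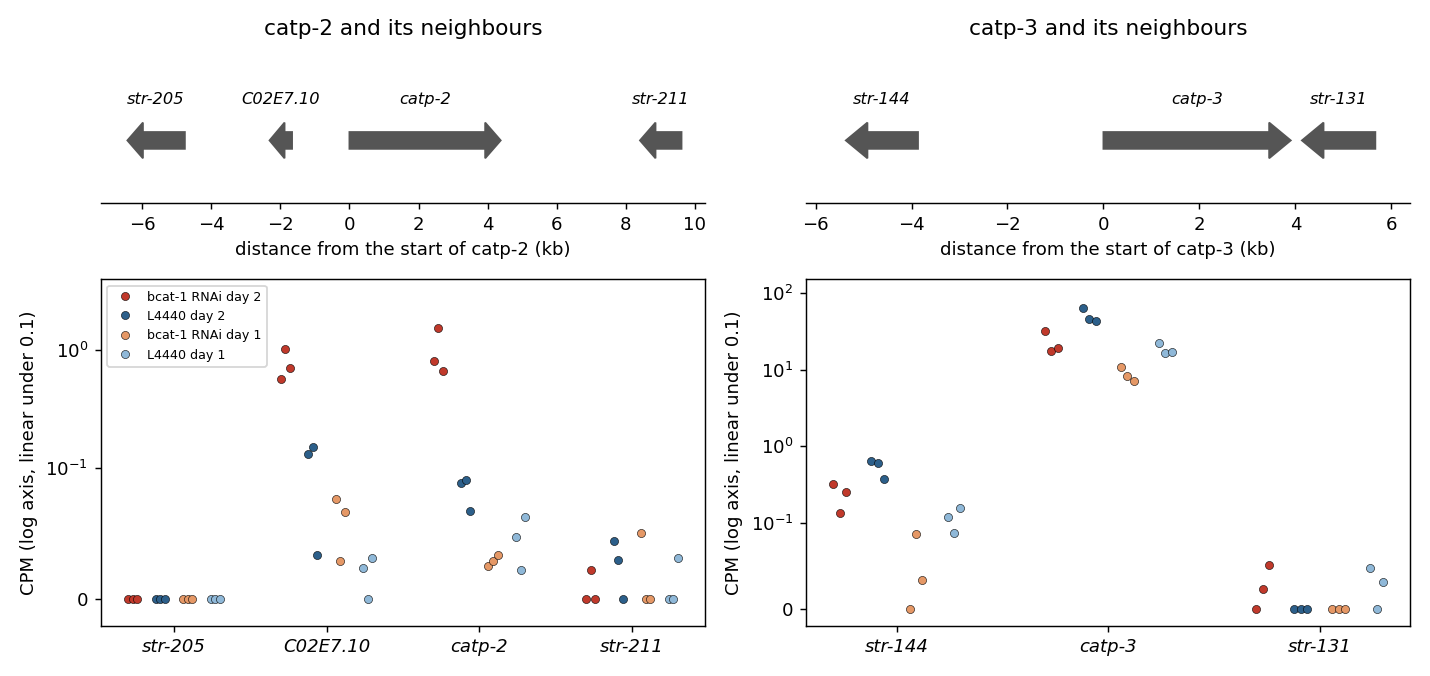
Top, the annotated protein-coding genes beside catp-2 (left) and catp-3 (right), drawn to scale as arrows along their strand, with the distance in kilobases from the start of each catp gene. Bottom, CPM of the same genes in the 12 libraries (points; log axis, linear under 0.1 CPM): catp-2 and C02E7.10 are above 0.5 CPM only on bcat-1 RNAi at day 2, while str-144, with 0 to 29 counts, is highest on L4440 at day 2 as catp-3 is.

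catp-1, on chromosome I at 14436810-14451889 on the reverse strand, is known for a part in the timing of larval development. It had 11.3, 9.8 and 7.8 CPM with bcat-1 RNAi at day 2, against 13.6, 10.7 and 8.78 CPM on L4440. Its day 1 values were 10.0, 12.5 and 10.6 CPM on bcat-1 RNAi, against 12.9, 10.7 and 13.1 CPM on L4440. catp-4, on chromosome II at 14593581-14597657 on the forward strand, had 1.36, 1.41 and 1.22 CPM with bcat-1 RNAi at day 2, against 1.4, 1.42 and 1.05 CPM on L4440. Its day 1 values were 1.43, 1.45 and 1.11 CPM on bcat-1 RNAi, against 1.91, 1.48 and 1.44 CPM on L4440. For both genes the foods overlapped at each day.

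Between foods, the log2 difference of catp-1 at day 2 was -0.19 (SE 0.18; -0.08 without the library labelled bcat-1 RNAi day 2 replicate 3), and its day 1 value was -0.15 (SE 0.18, adjusted p = 1.0 with edgeR). That of catp-4 at day 2 was 0.05 (SE 0.21; 0.09 without that library), and its day 1 value was -0.28 (SE 0.21, adjusted p = 1.0). With age, edgeR gave catp-1 -0.19 (SE 0.18, adjusted p = 0.625) on bcat-1 RNAi and -0.15 (SE 0.18, adjusted p = 0.803) on L4440, and catp-4 0.01 (SE 0.21, adjusted p = 0.99) on bcat-1 RNAi and -0.32 (SE 0.21, adjusted p = 0.493) on L4440. None of these passed the test. Without that library the age values on bcat-1 RNAi were -0.09 (adjusted p = 0.822) for catp-1 and 0.04 (adjusted p = 0.951) for catp-4.

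All 4 catp genes were small beside eat-6. The sodium/potassium pump gene had a mean of 226 CPM per kilobase on bcat-1 RNAi at day 2, 284 on L4440 at day 2, 247 on bcat-1 RNAi at day 1 and 260 on L4440 at day 1. It made up 92.6% to 98.1% of the summed level per kilobase of these 5 genes. catp-3 held 3.28%, 1.94% and 3.24% of that sum on bcat-1 RNAi at day 2, against 6.05%, 4.38% and 4.14% on L4440, and 1.43%, 0.877% and 0.75% on bcat-1 RNAi at day 1, against 2.25%, 1.74% and 1.93% on L4440. The share of catp-2 was at most 0.18%, in a bcat-1 library of day 2.

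pitr-5, on chromosome V at 7184849-7188552 on the forward strand, had 1.96, 3.12 and 1.99 CPM with bcat-1 RNAi at day 2, against 0.71, 0.968 and 0.475 CPM on L4440. The groups did not overlap, and the log2 difference was 1.71 (SE 0.29), 3.28-fold higher on bcat-1 RNAi and 3.48-fold without the library labelled bcat-1 RNAi day 2 replicate 3. The pooled ratio was 3.38, with a counting interval from 2.62 to 4.42 (3.53, 2.72 to 4.64, without that library). At day 1 it had 1.66, 2.12 and 1.47 CPM on bcat-1 RNAi, against 1.1, 1.28 and 1.22 CPM on L4440. These groups did not overlap either, but the log2 difference of 0.54 (SE 0.27) did not pass edgeR (adjusted p = 1.0).

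With age, pitr-5 had a log2 difference of 0.43 (SE 0.27; 0.51 without the library labelled bcat-1 RNAi day 2 replicate 3) on bcat-1 RNAi, where the days overlapped, and of -0.73 (SE 0.29) on L4440, where they did not. These values share the day 2 libraries with the choice of genes and were not tested. Among the 6 pitr genes, pitr-1 held 95.9% to 98.3% of the summed level per kilobase, and pitr-5 held 1.12%, 1.68% and 1.29% on bcat-1 RNAi at day 2, against 0.384%, 0.458% and 0.233% on L4440. pitr-5 shares 117 exon bases with F09G2.8 on the other strand, and the library kit does not mark strand. F09G2.8 had 116 to 146 CPM over the 12 libraries and a log2 difference between foods of -0.10 (SE 0.09) at day 2 and -0.03 (SE 0.09) at day 1.

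**Figure D3:**
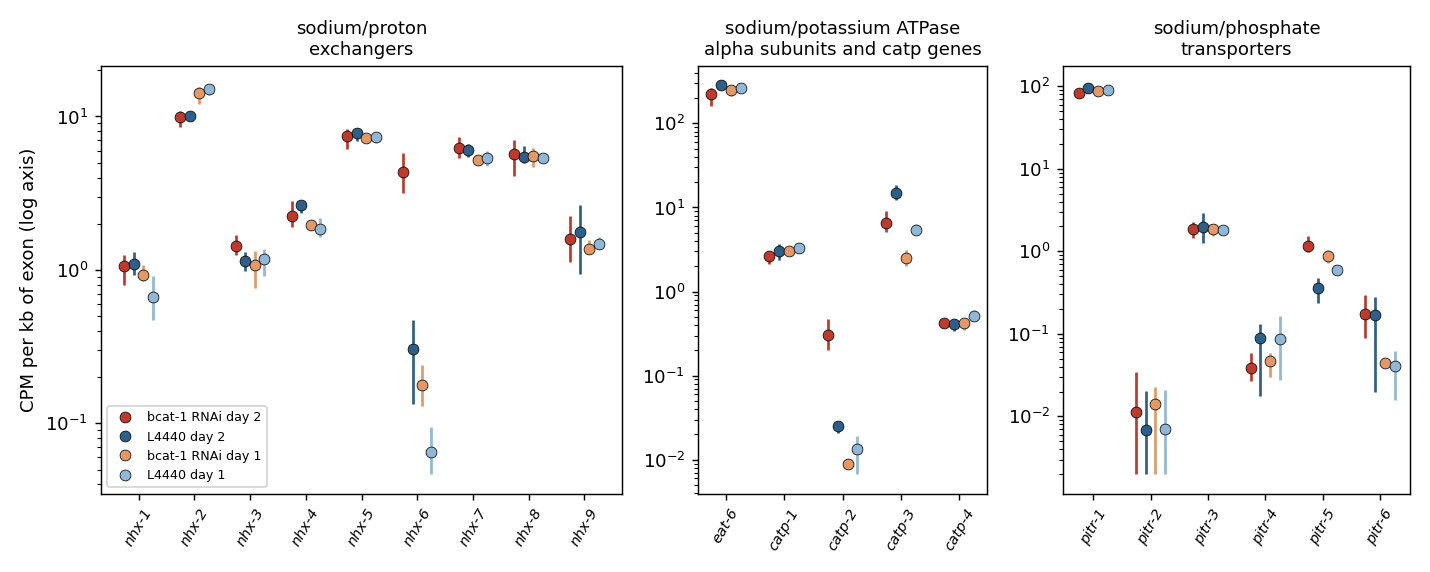
CPM per kilobase of exon (log axis) of the 9 sodium/proton exchangers, the 5 alpha-subunit and catp genes, and the 6 pitr genes in the 4 groups. Points are means and vertical lines run from the lowest to the highest of 3 libraries (lines of pitr-2 that reach the bottom run to 0): nhx-6 is at 4.37 on bcat-1 RNAi at day 2 and at 0.0653 to 0.307 in the other groups, while eat-6 and pitr-1 are the highest of their families throughout.

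Set side by side at day 2, bcat-1 RNAi libraries lay above all L4440 libraries for 4 of the 9 genes (nhx-6, catp-2, pitr-5 and C02E7.10), below all of them for 1 (catp-3), and overlapped them for 4 (nhx-2, nhx-7, catp-1 and catp-4). Of all genes tested, 6.52% lay wholly above and 4.24% wholly below in that comparison, and edgeR called 0.419%, with 7.21% at an unadjusted p under 0.05; since the members were chosen on it, nothing is read from their count. At day 1, 7 of the 9 had over 3 counts in some library and were given a test. Of these 7, 0 passed edgeR. An unadjusted p under 0.05 was found for 2 of 7 (nhx-6 and catp-3), and DESeq2 called 1 of 7 (catp-3). Of all genes, edgeR called 0.0%, 2.04% had such a p, and DESeq2 called 0.143%. The day 1 libraries alone would not have carried nhx-6 past the low-count filter. At day 1 nhx-6 and pitr-5 lay wholly above and catp-3 wholly below L4440, where 5.85% of all genes lay wholly above and 4.65% wholly below.

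With age, 5 members were tested on each food, and the same pair passed edgeR on both: catp-3 rose and nhx-2 fell. Of these 5, the day 2 and day 1 libraries did not overlap for 3 on bcat-1 RNAi (nhx-2, nhx-7 and catp-3) and for 3 on L4440 (nhx-2, catp-3 and catp-4), where 21.1% and 24.7% of all genes tested did not overlap; 18.7% and 18.1% of all genes had an unadjusted p under 0.05. The other 4 members are left out of these counts, since the choice of genes used their day 2 levels. Over all genes, edgeR called 4.07% with age on bcat-1 RNAi and 2.3% on L4440. The nhx-2 calls were lost in 8 (bcat-1 RNAi) and 7 (L4440) of 12 fits without 1 library, and those of catp-3 in 2 and 2. With library size only, all of these calls were lost. Whether the age differences differ between the foods was not tested. The median log2 change of the members that had a value was 0.05 between foods at day 2 (0.09 without the library labelled bcat-1 RNAi day 2 replicate 3) in the comparison that the choice of genes used, and -0.07 at day 1. The median of the 5 with age was 0.01 on bcat-1 RNAi (0.04 without that library) and -0.15 on L4440. The median of all genes was -0.017 and 0.013 between foods at day 2 and day 1.

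**Figure D4:**
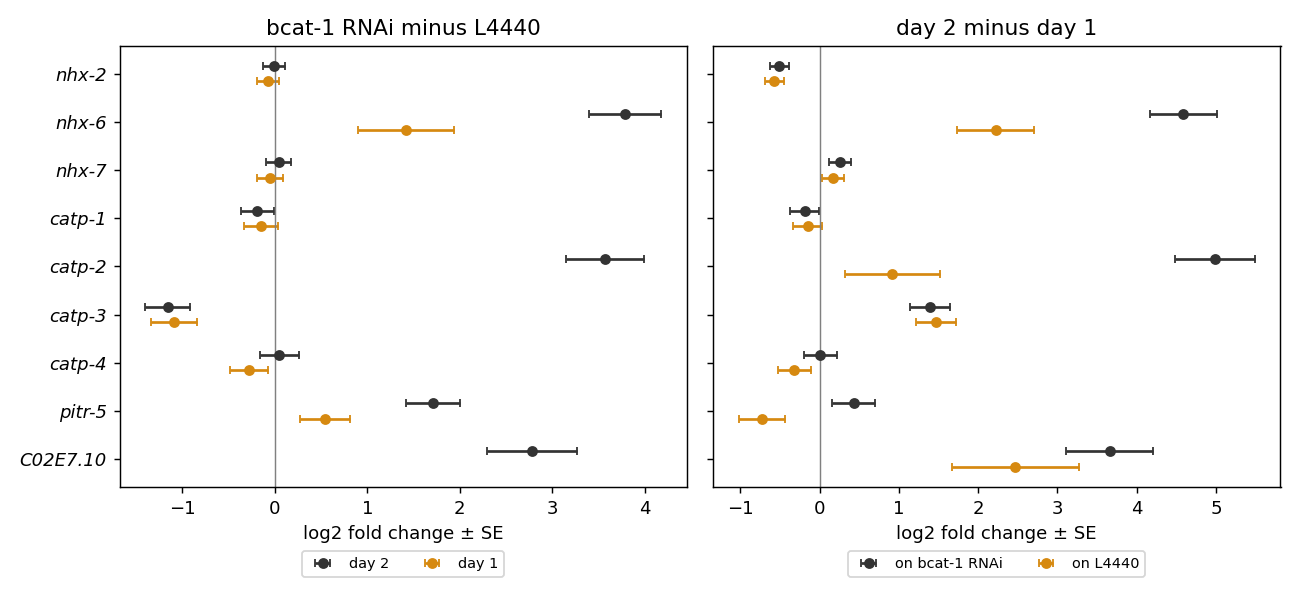
Log2 fold change ± SE (x axis) of each gene (y axis) from the edgeR fit. Left, bcat-1 RNAi minus L4440 at day 2 and day 1; right, day 2 minus day 1 on bcat-1 RNAi and on L4440. Between foods at day 2, nhx-6 (3.79), catp-2 (3.57), C02E7.10 (2.78) and pitr-5 (1.71) are right of 0 and catp-3 (-1.16) is left of it; catp-3 and nhx-2 have age changes of like size on both foods. At day 1, catp-2 and C02E7.10 have no point because no library held over 3 counts.

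Per kilobase of exon, the order of the 9 genes also differed by group. On bcat-1 RNAi at day 2 nhx-2 came first (9.99 ± 1.24 CPM per kilobase, SD, n = 3), followed by catp-3 (6.56 ± 2.23), nhx-7 (6.21 ± 1.05) and nhx-6 (4.37 ± 1.32), each overlapping the next over libraries, and catp-1 (2.62 ± 0.474) stood apart below nhx-6. On L4440 at day 2 catp-3 came first (14.7 ± 3.41), then nhx-2 (10.1 ± 0.25), nhx-7 (6.02 ± 0.581) and catp-1 (3.00 ± 0.652), each apart from the next. At day 1 nhx-2 was first on both foods, at 14.3 ± 1.87 on bcat-1 RNAi and 15 ± 1.08 on L4440, with nhx-7 next at 5.19 ± 0.19 and 5.36 ± 0.606. catp-2 was last in all 4 groups, at 0.308 ± 0.144 on bcat-1 RNAi at day 2 and 0.0252 ± 0.00388 on L4440 at day 2; at day 1 it overlapped C02E7.10 on L4440.

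The genes with profiles most like nhx-6 and catp-2 were sought over the 12 libraries by the root mean square difference of log2 CPM, centred on each gene's mean. The libraries include those that chose the members, so this is a description. A prior count of 2 was added before the logarithm. Outside the bcat-1 libraries of day 2, catp-2 had at most 4 counts in a library and C02E7.10 at most 6. Their log2 values there depend strongly on that prior. For nhx-6, whose own SD was 2.23, the nearest of 14566 genes were C02E7.10 (0.813), catp-2 (0.895), dod-3 (0.915), Y105C5B.3 (1.10) and B0024.4 (1.12). For catp-2, with an SD of 1.53, they were C02E7.10 (0.451), dod-3 (0.604), B0024.4 (0.658), ZK1290.10 (0.731) and F55G11.4 (0.753). dod-3, named as a gene downstream of the transcription factor DAF-16, had 9.83, 12.8 and 10.2 CPM with bcat-1 RNAi at day 2, against 4.81, 2.9 and 2.65 CPM on L4440. Its day 1 values were 1.94, 1.28 and 1.24 CPM on bcat-1 RNAi, against 0.953, 0.84 and 1.04 CPM on L4440. B0024.4 had 39.1, 42.5 and 22.8 CPM with bcat-1 RNAi at day 2, against 19.3, 14.6 and 5.22 CPM on L4440. Both were highest in the bcat-1 libraries of day 2, as nhx-6 was.

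Of the neighbours of nhx-6, srw-97 on its left had at most 5 counts in a library, too few to compare the ranges. The F-box gene fbxb-17 on the right of nhx-6 did not share its range. fbxb-17 had 8.92, 6.89 and 4.08 CPM with bcat-1 RNAi at day 2, against 8.69, 5.39 and 6.34 CPM on L4440. cpsf-2 and attf-2, beside pitr-5, had 96.7 to 113 CPM and 304 to 479 CPM over the 12 libraries.

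Transport genes outside the set were read from 7 lists: sodium/proton exchangers, sodium/potassium pump subunits, other P-type ATPases, sodium/phosphate transporters, the intestinal proton cycle with defecation, bicarbonate, chloride and carbonic anhydrase genes, and sodium/calcium exchangers. Together they named 83 genes without the members, of which 77 were tested. Between foods, 0 of 77 passed edgeR at day 2 (7 at an unadjusted p under 0.05, 1 with DESeq2) and 0 at day 1 (2 and 0). Of all genes, 7.21% at day 2 and 2.04% at day 1 had such a p, and DESeq2 called 1.24% and 0.143%. The gene that DESeq2 called at day 2 was the carbonic anhydrase gene cah-3 (DESeq2 adjusted p = 0.0465; edgeR log2 change 0.51, SE 0.12, adjusted p = 0.149; 0.49 and 0.355 without the library labelled bcat-1 RNAi day 2 replicate 3). The median log2 change of the 77 was -0.10 at day 2 and -0.04 at day 1, beside -0.017 and 0.013 for all genes.

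By list, the day 2 median between foods was -0.06 for 6 exchangers, -0.17 for 3 pump subunits, -0.23 for 16 other P-type ATPases, -0.10 for 3 phosphate transporters, 0.08 for 20 proton cycle and defecation genes, -0.14 for 20 bicarbonate, chloride and carbonic anhydrase genes, and -0.07 for 9 sodium/calcium exchangers. With library size alone as the scale, the median of all genes moved to -0.136, and that of the proton cycle genes to -0.06. Without the library labelled bcat-1 RNAi day 2 replicate 3 the median of the other P-type ATPases was -0.05 and that of the exchangers 0.04. At day 1 the 7 medians lay between -0.08 and 0.02.

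With age, 3 of the 77 fell on bcat-1 RNAi and 2 on L4440, and 0 rose on either, by edgeR. Over all genes tested, 2.06% and 1.29% were called lower on these foods, and 2.01% and 1.01% higher. The carbonic anhydrase gene cah-4 fell on both foods, to 50.1 ± 3.97 CPM at day 2 against 82.2 ± 10.6 CPM at day 1 on bcat-1 RNAi (log2 -0.72, adjusted p = 0.00448), and to 56.9 ± 5.37 CPM against 85.1 ± 7.03 CPM on L4440 (log2 -0.58, adjusted p = 0.0242; SD, n = 3 each). On bcat-1 RNAi the others were nkb-3, a beta subunit of the sodium/potassium pump (log2 -0.43, adjusted p = 0.0473), and vha-6, an intestinal subunit of the proton-pumping V-ATPase (-0.55, adjusted p = 0.0212). On L4440 the other was pept-1, the intestinal dipeptide transporter that takes up protons with its cargo (-0.59, adjusted p = 0.0394). At an unadjusted p under 0.05 there were 13 on bcat-1 RNAi and 17 on L4440, and DESeq2 called 4 on each. Of all genes, 18.7% and 18.1% had such a p, and DESeq2 called 7.12% and 6.31%.

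The cah-4 call on bcat-1 RNAi held in all 12 fits that left out 1 library. Without the library labelled bcat-1 RNAi day 2 replicate 3, the changes on bcat-1 RNAi were -0.79 for cah-4 (adjusted p = 0.00614), -0.50 for nkb-3 (0.0236) and -0.50 for vha-6 (0.0366). In that fit edgeR called 4 of these transport genes with age on bcat-1 RNAi and 3 on L4440. Over all genes the same fit called 651 on bcat-1 RNAi and 574 on L4440, against 593 and 335 with all 12 libraries. On L4440 the cah-4 call was lost without L4440 day 2 replicate 1 (adjusted p = 0.0741) or 3 (0.106), or L4440 day 1 replicate 1 (0.0867) or 2 (0.12). The vha-6 call was lost without bcat-1 RNAi day 1 replicate 2 (0.101) or 3 (0.139), or bcat-1 RNAi day 2 replicate 2 (0.0589). The nkb-3 call was lost in 9 of 12 such fits, with adjusted p up to 0.186 without bcat-1 RNAi day 1 replicate 2, and held without L4440 day 2 replicate 1 or 2 or the library labelled bcat-1 RNAi day 2 replicate 3. The pept-1 call was lost in 7 of 12: without L4440 day 2 replicate 1 (0.121) or 3 (0.111), L4440 day 1 replicate 1 (0.0985), 2 (0.172) or 3 (0.0687), or bcat-1 RNAi day 1 replicate 2 (0.0505) or 3 (0.0702). Library size only ended the calls of cah-4 on L4440 (0.164), pept-1 (0.25), vha-6 (0.235) and nkb-3 (0.22). Only the compared groups in the fit ended those of vha-6 (0.137) and nkb-3 (0.138), and leaving out both libraries rich in ribosomal RNA ended those of vha-6 (0.0584), cah-4 on L4440 (0.0767) and pept-1 (0.0748). Without both replicate 1 libraries of day 2, the calls of cah-4 on L4440 (0.0502) and pept-1 (0.102) were lost. Of the 56 tested markers, 4 fell with age on bcat-1 RNAi and 3 on L4440; beside asp-1 and act-5 these were the adult cuticle collagen gene col-19 (log2 -1.29, adjusted p = 0.00156 on bcat-1 RNAi; -1.13, adjusted p = 0.00646 on L4440) and the excretory aquaporin gene aqp-8 (-1.0, adjusted p = 0.00372 on bcat-1 RNAi; -1.11, adjusted p = 0.0046 on L4440). Without the library labelled bcat-1 RNAi day 2 replicate 3, the changes on bcat-1 RNAi were -1.51 for col-19 (adjusted p = 0.000201) and -1.08 for aqp-8 (0.00632). Of the 5 epidermis markers, 2 had a positive age change on bcat-1 RNAi and 3 on L4440, up to 2.31 and 2.85. Of the 5 excretory canal markers, 2 and 3 did, up to 0.46 and 0.44. Over all genes tested, edgeR called 2.06% lower with age on bcat-1 RNAi and 1.29% on L4440.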

How the data were processed

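Whole N2 hermaphrodites were sequenced with the TruSeq RNA kit v2, per the labels, in 12 libraries of 4 groups. Per the submitters' processing notes, the tools included bcl2fastq 1.8.4, STAR 2.4.1d and featureCounts 1.4.6-p4, with the build WBcel235. The deposited table holds the authors' whole-number read counts per gene. Which annotation release was counted, with what strand setting, and how multi-mapping reads were handled is not given in the sources used here. A second deposited table, of RPKM, was not used here.

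Positions, exon lengths and symbols come from Ensembl annotation 115, which held 46449 of the 46748 genes. Of these genes, 21649 had no count in any library. nhx-7 was matched as pbo-4. Replicate numbers follow the order of the samples and were not used to pair libraries. Counts were analysed with edgeR 4.0.16 in R 4.3.3: filterByExpr by group kept 14567 genes, TMM factors scaled the libraries, and 1 quasi-likelihood model with 4 group means was fitted to all 12 libraries (8 residual degrees of freedom, common dispersion 0.04). Two-sided p-values were Benjamini-Hochberg adjusted over the 14567 genes, and 0.05 was the threshold. SE is of the log2 change. Counting intervals are exact conditional intervals of the ratio of pooled counts at 95%, and duplicated PCR reads make them too narrow. They leave out the spread between libraries. For the members' day 2 difference between foods they describe the counts and are no test. All 9 members passed the filter, which asks for about 0.285 CPM in 3 libraries; nhx-6 was over that level in 0 of 3 L4440 libraries at day 1.

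Alternatives were RLE factors, library size only, no filter (25099 genes), DESeq2 1.42.0, a fit of only the compared groups, leaving out each library, and leaving out the pair of day 2 libraries in which ribosomal RNA genes took over 5% of counts. Leaving out both replicate 1 libraries of day 2 was added after the data were seen. The edgeR script was checked on simulated counts. The members and lists were chosen with earlier results of these data known. Genes named beside the members are list genes past the test (up to 4 per list and comparison), the 5 nearest profiles of nhx-6 and of catp-2, the nearest protein-coding genes on each side, and bcat-1; in the lists, 2 written genes had no row in the table. Protein and promoter sequences were not used here.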

Additional observations from a re-analysis of the deposited data

How the results depend on the processing

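Of the members' values that had a test, 286 kept direction and side of the threshold under the alternatives, 27 kept direction but lost the call, 1 gained it (catp-3 at day 1 with DESeq2) and 8 changed sign. Of those with no test, 319 moved by less than the larger of the compared groups' SDs of log2(CPM + 0.05) and 1 by more (catp-2 with age on L4440, 0.58 without L4440 day 1 replicate 2), and 11 changed sign, all between foods at day 2: nhx-2 reached 0.07, nhx-7 -0.10 and catp-4 -0.08. Of the tested values, between foods at day 1, nhx-2 ran from -0.15 to 0.04 (without bcat-1 RNAi day 1 replicate 1) and nhx-7 from -0.12 to 0.04 (without L4440 day 1 replicate 3) over the fits without 1 library, and catp-4 with age on bcat-1 RNAi was -0.08 with library size only, -0.01 with no filter, -0.01 with DESeq2 and -0.09 to 0.07 over the fits without 1 library.

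Library size only moved the median of all genes to -0.136 between foods at day 2 and to -0.106 with age on bcat-1 RNAi, against -0.017 and -0.005 with TMM; it ended the age calls of nhx-2 (adjusted p = 0.292 on bcat-1 RNAi, 0.305 on L4440) and catp-3 (0.0761 and 0.0709). A fit of only the compared groups ended those on bcat-1 RNAi (0.161 for nhx-2, 0.0511 for catp-3), leaving out both libraries rich in ribosomal RNA ended that of nhx-2 on bcat-1 RNAi (0.0802), and leaving out both replicate 1 libraries of day 2 ended that of nhx-2 on L4440 (0.0548). The cause was not tested.

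Genes called by edgeR over the whole table at day 2 between foods numbered 61, but 19 with library size only, 184 with DESeq2, 0 with only the compared groups, 30 without both libraries rich in ribosomal RNA, and 15 (without bcat-1 RNAi day 2 replicate 2) to 81 (without bcat-1 RNAi day 2 replicate 1) without 1 library. At day 1 the 0 calls became 7 with no filter, 16 with DESeq2, 1 with only the compared groups, 1 without both libraries rich in ribosomal RNA, and 0 to 1 without 1 library. With age on bcat-1 RNAi the 593 calls became 244 with library size only, 1026 with DESeq2, 222 with only the compared groups, and 229 (without bcat-1 RNAi day 1 replicate 2) to 657 (without L4440 day 2 replicate 1). With age on L4440 the 335 calls became 100 with library size only, 867 with no filter, 997 with DESeq2, and 79 (without L4440 day 1 replicate 2) to 1017 (without L4440 day 2 replicate 2). Without both replicate 1 libraries of day 2 the 4 counts were 63, 0, 580 and 272. No paired analysis was possible because the labels give no replicate numbers. Replicate 3 by sample order had the highest share of ribosomal RNA counts in each group. It was 41.5% and 6.74% at day 2 and 2.49% and 0.967% at day 1, on bcat-1 RNAi and L4440 in turn. Whether libraries of like order shared a batch cannot be told from the labels, was not tested and was not in the model. Counts of 3 or fewer leave catp-2 and C02E7.10 undetermined at day 1.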
